A study of Mus musculus with 6 samples.

Results

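The 39 mouse Hox genes were read in RNA-seq libraries of young and aged aorta. Members were the rows of the gene table whose symbol is Hox followed by a cluster letter from a to d and a number, which gave 39 of 55335 genes. RNA was sequenced from the aorta of wild-type C57BL/6 mice aged 6 weeks (young, n = 3) and 6 months (aged, n = 3), with 1 library per mouse. The methods describe the mice as male and state that fat was dissected off the vessel. They give an approximate length of vessel per mouse, but neither they nor the labels say which stretch of the aorta entered each library. At 6 months a mouse is a mature adult, so "aged" is the name of a group here. The question put to these genes was which levels of the body axis the sampled vessel carried, and whether Hox levels differed between the ages.

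Hox genes encode homeodomain transcription factors that give cells of the embryo their place along the head-to-tail axis. Mammals carry them in the HoxA, HoxB, HoxC and HoxD clusters, and genes at the same place in different clusters form a paralog group. Low-numbered groups switch on first and have the most anterior boundaries, and high-numbered groups switch on last and stay in the trunk, tail, limbs and genital region. Adult smooth muscle cells and fibroblasts keep much of this pattern, so the Hox genes that a vessel expresses are commonly read as a record of where along the body it lay. The wall of the ascending aorta and arch is built largely by neural crest and heart outflow cells, and that of the descending aorta by cells of the trunk mesoderm.

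On GRCm38 the HoxA cluster lay on chromosome 6 from 52155590 to 52260880 on the minus strand with 11 members, and HoxB on chromosome 11 from 96194316 to 96368256 on the plus strand with 10. HoxC lay on chromosome 15 from 102921103 to 103036852 and HoxD on chromosome 2 from 74668310 to 74765142, both on the plus strand with 9 members. The upstream sequences of 5 members are shown because they span the readout, from genes at or above 1 CPM in every library to a gene without a count. Each is the 250 bases just before the gene's start in RefSeq on GRCm38.p6, 5′ to 3′ on the strand of the gene, and none of these bases lies in an exon of GENCODE M21. Capitals mark matches on either strand to a few short motifs. CCAAT is the CCAAT box, and the GC box was searched as GGGCGG. The TATA box was searched as TATAAA. Sites bound by Hox together with Pbx proteins were searched as TGATTNAT, where N is any base. Sites of Meis proteins were searched as TGACAG. In the window of Hoxa2 a Meis match and a CCAAT match abut, and in that of Hoxa13 a CCAAT match and a GGGCGG match. No matches overlap in the windows shown.

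The first 3 belong to the best-expressed members of groups 2, 5 and 4. Hoxa2 (chr6:52164832-52165081) patterns the second pharyngeal arch, Hoxa5 (chr6:52204588-52204837) the lower neck, lung and upper thorax, and Hoxb4 (chr11:96318017-96318266) the cervical vertebrae and blood stem cells.
Hoxa2: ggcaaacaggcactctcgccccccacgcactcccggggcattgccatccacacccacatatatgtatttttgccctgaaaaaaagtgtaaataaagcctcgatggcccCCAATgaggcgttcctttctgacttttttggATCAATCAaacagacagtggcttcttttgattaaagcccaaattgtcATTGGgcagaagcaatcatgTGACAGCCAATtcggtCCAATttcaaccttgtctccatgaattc
Hoxa5: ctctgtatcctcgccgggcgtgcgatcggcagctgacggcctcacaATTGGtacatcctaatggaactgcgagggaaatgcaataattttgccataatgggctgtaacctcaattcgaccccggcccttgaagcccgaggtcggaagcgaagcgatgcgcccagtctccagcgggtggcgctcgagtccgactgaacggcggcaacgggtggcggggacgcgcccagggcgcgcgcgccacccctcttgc
Hoxb4: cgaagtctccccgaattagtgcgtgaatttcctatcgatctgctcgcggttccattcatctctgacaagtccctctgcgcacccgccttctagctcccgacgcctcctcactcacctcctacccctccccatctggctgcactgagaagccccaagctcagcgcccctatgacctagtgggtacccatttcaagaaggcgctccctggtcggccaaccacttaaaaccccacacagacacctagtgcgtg
Hoxb8 (chr11:96281655-96281904), of the trunk, was the first HoxB gene past the block at or above 1 CPM in every library. Hoxa13 (chr6:52260881-52261130), of the distal limb and urogenital tract, had no count in any library.
Hoxb8: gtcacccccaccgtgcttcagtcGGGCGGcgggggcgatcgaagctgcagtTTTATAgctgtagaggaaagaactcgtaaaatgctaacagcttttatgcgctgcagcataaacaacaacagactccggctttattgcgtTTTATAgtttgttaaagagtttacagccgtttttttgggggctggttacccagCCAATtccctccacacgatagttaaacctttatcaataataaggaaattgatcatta
Hoxa13: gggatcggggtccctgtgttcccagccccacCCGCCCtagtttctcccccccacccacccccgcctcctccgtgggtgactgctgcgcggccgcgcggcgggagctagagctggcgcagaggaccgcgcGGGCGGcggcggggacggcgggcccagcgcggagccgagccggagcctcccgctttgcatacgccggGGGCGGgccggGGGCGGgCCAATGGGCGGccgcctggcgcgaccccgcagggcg

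Upstream windows of this length were held for 22 members, as 24 windows. Their median ratio of observed to expected CpG was 0.721, against 0.374 over all 32851 windows of the table, and their median GC content was 58.6% against 52.4%. CCAAT was in 14 of the 24 windows (58.3%) and in 33.8% of all windows, and GGGCGG in 41.7% and 32.7%. TGATTNAT was in the windows of Hoxa2 and Hoxd11, 8.33% against 2.82% of all. TGACAG was in those of Hoxa2 and Hoxa3, 8.33% against 15.9%. Windows of 5 members at or above 1 CPM in every library had a median CpG ratio of 0.687, and those of members without a count 0.776, values that lie close together. These matches are letters in a window and not mapped binding sites.

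Between 31049632 and 45832185 reads were counted on genes per library. The smooth muscle markers Acta2, Myh11, Tagln, Cnn1, Smtn and Lmod1 summed to between 27960 and 40140 CPM (counts scaled by TMM to a shared library size), so the libraries were rich in smooth muscle RNA, and all 6 were lower in aged aorta (median log2 fold change -0.32). All 5 macrophage markers had higher values in aged aorta, with sums of 101 to 305 CPM against 74.3 to 94.4. Fitted values were higher for 5 of 6 fibroblast markers, but their sum was higher in aged replicates 1 and 3 alone (9041 and 6137 CPM) and at 2886 CPM in aged replicate 2, below the young range of 4224 to 5442. Some libraries stood apart. Cardiac muscle markers summed to 309 CPM in young replicate 1 and to 47.4 to 68.2 in the others, adipocyte markers to 3259 CPM in aged replicate 2 against 422 to 1500, and endothelial markers to 1563 CPM in aged replicate 3 against 317 to 461. Xist, the RNA of the inactive X chromosome of females, was at 305.6 CPM in young replicate 1 and at most 0.636 CPM elsewhere, which goes against the description of the mice as male. Mesothelial markers summed to 61.4 CPM in young replicate 2 and 64.0 CPM in aged replicate 3, against 1.05 to 11.6 elsewhere. After these data were seen, results were also computed without young replicate 1 and aged replicate 2, with aged replicate 3 kept.

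The Hox transcripts that reached 1 CPM in every library of adult aorta came from paralog groups up to 7 of the HoxA and HoxB clusters. At or above 1 CPM in all 6 libraries were 12 members, among them Hoxa2, Hoxa3, Hoxa4, Hoxa5 and Hoxa7, and Hoxb2, Hoxb3, Hoxb4, Hoxb5, Hoxb6 and Hoxb7. HoxA and HoxB gave 6 each, and HoxC and HoxD 0. The most posterior group in this set was 7 in both clusters. The same number, 12, reached 1 FPKM (reads scaled for gene length and library) in all libraries. Just inside the threshold was Hoxb7, with a lowest value of 2.07 CPM. Just outside were Hoxc6 at 0.602 CPM and Hoxb8 at 0.572 CPM in their lowest libraries. The boundary depends on the threshold. A mean of at least 1 CPM was reached by 16 members, which added Hoxb8, Hoxc4, Hoxc6 and Hoxc8, all with counts in every library.

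**Figure D1:**
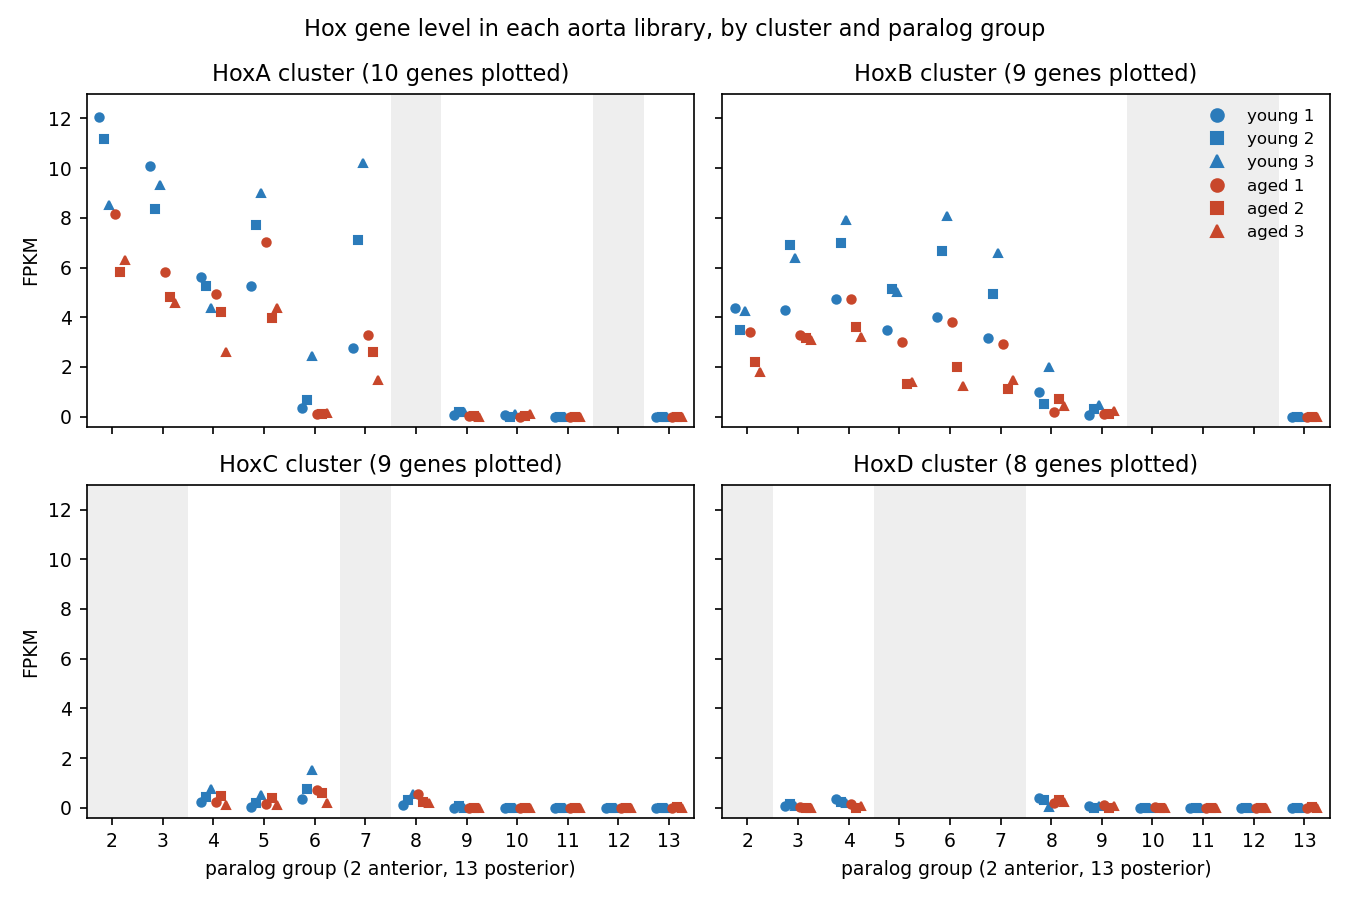
FPKM of Hox genes of paralog groups 2 to 13 (vertical axis) against its paralog group (horizontal axis) in the 4 clusters, with 1 point per library, young in blue and aged in red. Grey bands mark groups with no gene in that cluster. HoxC and HoxD genes stay at or under 1.53 FPKM in every library, while most points of HoxA and HoxB genes up to group 7 lie above that level, and groups 10 to 13 lie at the axis.

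On the per-length scale Hoxa2 was the highest member. Its FPKM was 12.1, 11.2 and 8.52 in young replicates 1, 2 and 3 and 8.15, 5.80 and 6.32 in aged replicates 1, 2 and 3. Hoxa3, which patterns the third pharyngeal arch and the carotid arteries, thymus and parathyroid that derive from it, followed at 10.1, 8.35 and 9.31 FPKM in young and 5.82, 4.8 and 4.57 in aged aorta. The ranges of these 2 genes overlapped. Within libraries Hoxa2 was the higher except in young replicate 3 (8.52 against 9.31 FPKM), so their order was not the same in every mouse. Hoxa5 had a mean of 6.23 FPKM, Hoxb4 of 5.20, Hoxa7 of 4.58, Hoxb3 of 4.52, Hoxa4 of 4.50 and Hoxb6 of 4.30. Hoxb7, Hoxb2 and Hoxb5 followed at 3.37, 3.26 and 3.23. Neighbours in this order overlapped in their values over the libraries. Hoxb8 lay lower, at a mean of 0.804 FPKM, and its highest library, at 2.02 FPKM, overlapped the range of Hoxb5.

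The highest HoxB member was Hoxb4, at 4.74, 7.0 and 7.92 FPKM in young and 4.72, 3.61 and 3.21 in aged aorta. The highest HoxC member was Hoxc6, a gene of the thoracic level, at 0.356, 0.749 and 1.53 FPKM in young and 0.731, 0.591 and 0.190 in aged aorta. The highest HoxD member was Hoxd8, at 0.415, 0.301 and 0.043 FPKM in young and 0.188, 0.310 and 0.229 in aged aorta. HoxA took 51.3% to 60.3% of all Hox FPKM in a library and HoxB 36.0% to 44.6%. HoxC took 1.16% to 4.45% and HoxD 0.442% to 1.43%, so HoxA and HoxB held most of the Hox FPKM in each of the 6 libraries.

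Posterior genes were at or near 0. No count was found in any library for 9 members, namely Hoxa11, Hoxa13, Hoxb13, Hoxc10, Hoxc11, Hoxc12, Hoxd1, Hoxd11 and Hoxd12. With these depths 0 counts allows a level of up to 0.0619 to 0.106 CPM in a library, taking 3 counts as the limit and covering counting error only. Another 5 members had fewer than 10 counts over all libraries: Hoxb1 had 2, Hoxc9 had 6, Hoxc13 had 4, Hoxd10 had 3 and Hoxd13 had 3. Paralog groups 10 to 13, the genes of the lumbar, sacral and tail levels, held 59 counts over all 6 libraries, 52 of them in group 10 and 49 in Hoxa10. The split was not by position alone, since the anterior genes Hoxb1 and Hoxd1 were at or near 0 too.

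Hoxa9, Hoxb9 and Hoxd9, at the border between thoracic and lumbar levels, had 111, 129 and 31 counts over the 6 libraries. Hoxb9 had 10, 30 and 44 counts in young and 11, 13 and 21 in aged libraries. Hoxa10 had 15, 0 and 13 counts in young and 0, 7 and 14 in aged libraries. Levels of this size carry large counting error. Hoxd9 did not pass the filter on low counts, and with the 9 silent members and the 5 members under 10 counts it makes up the 15 members that were not tested.

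With age, no Hox gene passed the test across all genes. The quasi-likelihood test of edgeR, adjusted by the Benjamini-Hochberg method, called 0 of the 24 members tested and 0 (0%) of the 16612 genes tested, with 1723 genes (10.4%) at an unadjusted p below 0.05. The lowest adjusted p of a member was 0.377, for Hoxa3. Without aged replicate 2, edgeR called 110 genes and again 0 members. DESeq2 called 338 genes (2.03%), 117 of them lower in aged aorta (0.704%), and of the members only Hoxa3 (adjusted p = 0.0469).

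Values of most members were lower in aged aorta. The fitted log2 fold change of aged over young aorta was below 0 for 21 of 24 members, against 47.9% of all genes tested, and its median was -0.60 (1.52 times higher in young) against 0.020. An unadjusted p below 0.05 with a lower value in aged aorta was found for 7 of the 24 (29.2%), against 4.82% of all genes. Every aged library was below every young library for 8 of the 24 (33.3%), against 8.78% of all genes, and no member had the opposite order (7.74% of all genes). Some low members, Hoxa6, Hoxa9 and Hoxd3 among them, entered the test only through their young libraries, so the filter favoured a lower aged value for them. The 16 members averaging 1 CPM or more were therefore also read alone. Of these, 15 were lower in aged aorta with a median of -0.55, against 0.015 over the 14085 genes averaging as much. In this set 6 of the 16 members were at an unadjusted p below 0.05 and lower, against 5.32% of all such genes. The groups did not overlap for 4 of the 16, against 9.35% of all such genes. The other 4 members without overlap, Hoxa6, Hoxa9, Hoxd3 and Hoxd4, were the low ones.

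The count at an unadjusted p was not stable to single libraries. It was 3 without aged replicate 2, without aged replicate 3, without young replicate 2 or without young replicate 3, against 10 without aged replicate 1. No member was higher at such a p in these settings. The share of all genes lower at such a p was not counted in these settings. In either direction, 2359 of all 17147 genes were at such a p without aged replicate 2. These numbers were 1244 of 17445 without aged replicate 3 and 1277 of 17295 without young replicate 2. They were 1061 of 17306 without young replicate 3 and 1443 of 17274 without aged replicate 1. Without both young replicate 1 and aged replicate 2 the Hox count was 8 of 24 (7.08% of all genes), with 22 of 24 lower. The median was then -0.88, and it was -0.81 without young replicate 1 alone and -0.52 without young replicate 3 alone. In the setting without both, the groups did not overlap for 15 of 24 (25.6% of all genes with 2 libraries against 2). The summed level of all 39 genes was 202, 229 and 254 CPM in young and 175, 132 and 124 CPM in aged aorta, without overlap (228 ± 26.0 and 144 ± 27.5, SD, n = 3 each). In bulk tissue, fewer cells of a type and less RNA per cell cannot be told apart. The position along the aorta of the vessel taken from each mouse is also not recorded, so segment and age cannot be told apart. The macrophage marker sum was higher in each aged library than in any young one, and smooth muscle markers had lower fitted values in aged aorta with sums that overlapped. Aged replicate 2, with a Hox sum of 132 CPM, had the lowest fibroblast sum and the highest adipocyte sum of the 6 libraries. Aged replicate 3 had the lowest Hox sum, 124 CPM. Its fibroblast sum, 6137 CPM, was above the young range and its adipocyte sum, 923 CPM, within it. The part of any of these cell types in the Hox values was not tested.

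**Figure D2:**
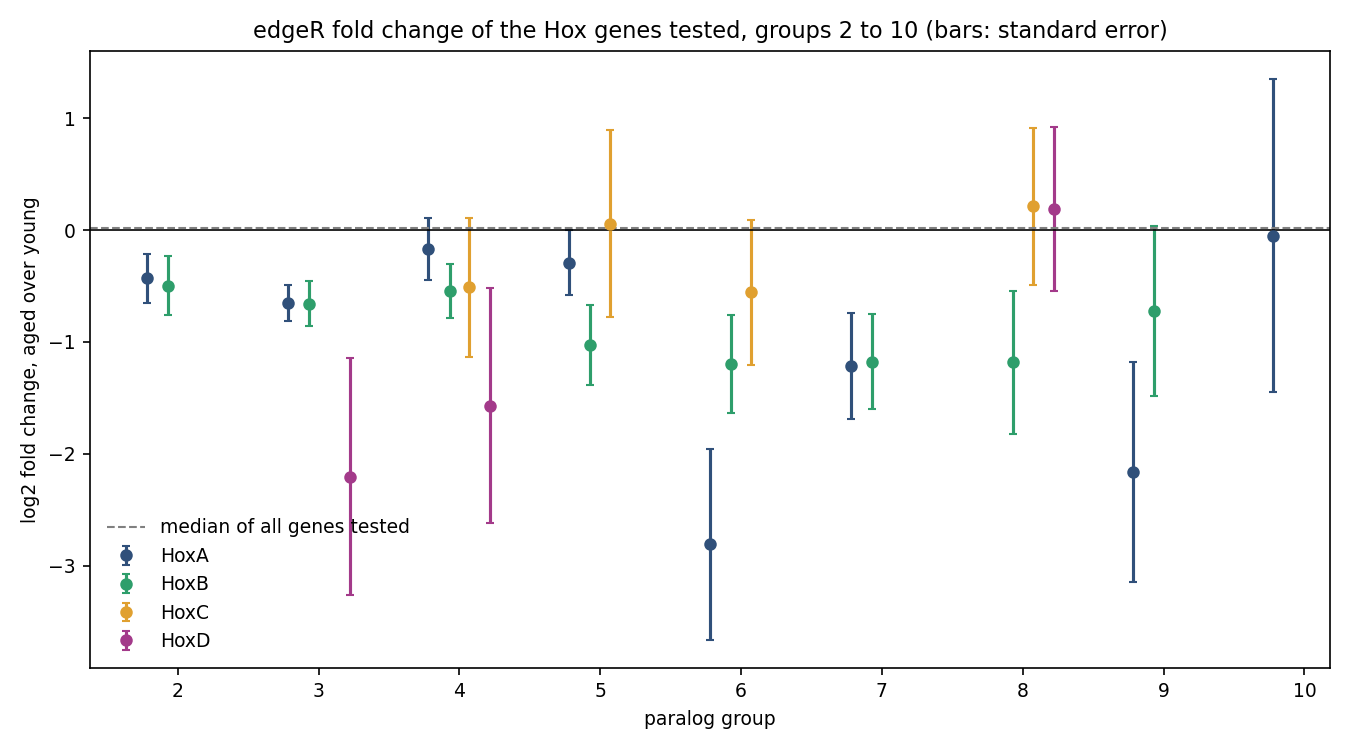
Fitted log2 fold change of aged over young aorta (vertical axis) for 23 Hox genes of paralog groups 2 to 10 tested by edgeR, against paralog group (horizontal axis), coloured by cluster, with bars of 1 standard error. Of the points, 20 lie below 0, and the dashed line at 0.020 is the median of all genes tested.

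Among the anterior genes of groups 1 to 3, all 6 members tested had lower values in aged aorta, against 47.9% of all genes tested. Their median was -0.57 on the log2 scale. The 6 include Hoxd3, a low member that passed the count filter only through its young libraries. Hoxa3 was at 63.8, 51.4 and 56.1 CPM in young and 41.1, 33.8 and 34.1 CPM in aged aorta. All aged libraries were below all young ones (log2 fold change -0.65 ± 0.16 SE, adjusted p = 0.377 by edgeR), a level 1.57 times higher in young aorta. Exons of antisense genes cover 25.4% of the exon bases of Hoxa3, and strand use in the counting is not stated, so reads of the 2 strands cannot be told apart there.

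Hoxb3, its paralog in HoxB, was at 19.3, 30.1 and 27.2 CPM in young and 16.5, 15.7 and 16.3 CPM in aged aorta. The groups did not overlap (log2 fold change -0.66 ± 0.20 SE, adjusted p = 0.390 by edgeR), and the fold was 1.58, close to that of Hoxa3. Hoxb3os, an antisense gene, covers 52.9% of the exon bases of Hoxb3, and it was at 6.06 ± 1.58 CPM in young and 6.89 ± 2.83 in aged aorta (SD, n = 3). Hoxd3 had 22, 27 and 11 counts in young and 9, 2 and 0 in aged libraries. These counts did not overlap as CPM either (log2 fold change -2.20 ± 1.06 SE, adjusted p = 0.524 by edgeR), but the gene shares 53.1% of its exon bases with Gm28230 on the same strand. Hoxa2 was at 22.5, 20.3 and 15.2 CPM in young and 17.0, 12.1 and 13.9 CPM in aged aorta, and Hoxb2 at 16.1, 12.5 and 14.9 against 14, 9.01 and 7.89 CPM. For both, aged replicate 1 lay inside the young range.

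In groups 4 and 5, the genes of neck and upper thorax, 6 of 7 members had lower values in aged aorta (median log2 fold change -0.51). Over all genes tested the share was 47.9%. The 6 include Hoxd4, a low member that met the filter in every young library but not in aged replicate 2. Hoxb5, which acts in vascular progenitors and in the enteric nervous system, was at 10.3, 14.7 and 14 CPM in young and 9.87, 4.29 and 4.88 CPM in aged aorta. The groups just did not overlap, since aged replicate 1 was close to young replicate 1 (log2 fold change -1.03 ± 0.36 SE, adjusted p = 0.416 by edgeR). Hoxd4 had 55, 26 and 23 counts in young and 17, 0 and 10 in aged libraries, again without overlap as CPM (log2 fold change -1.57 ± 1.05 SE, adjusted p = 0.625 by edgeR). It too shares 39.1% of its exon bases with Gm28230, which had 22 counts in aged replicate 2, where Hoxd4 had 0. Gm28230 had 7 counts in young replicate 1 and 0 in the rest. Hoxd3 and Hoxd4 also share 388 exon bases with each other.

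The other genes of these groups overlapped between ages. Hoxa4 was at 9.41, 8.59 and 6.99 CPM in young and 9.24, 7.90 and 5.13 CPM in aged aorta, and without aged replicate 3 its log2 fold change turned from -0.17 to 0.041. Hoxa5 was at 10.4, 14.8 and 17.0 CPM in young and 15.5, 8.75 and 10.2 CPM in aged aorta. Hoxb4 was at 12.8, 18.4 and 20.4 CPM in young and 14.3, 10.9 and 10.3 CPM in aged aorta. In Hoxa5 and Hoxb4 young replicate 1 was the lowest young library and aged replicate 1 the highest aged one. Hoxc4 was at 0.702, 1.18 and 1.95 CPM in young and 0.752, 1.48 and 0.425 CPM in aged aorta, and Hoxc5 lay between 0.186 and 1.60 CPM.

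Groups 6 to 8 are the genes of the thoracic trunk. Their median log2 fold change, -1.18, was the lowest of the classes with more than 2 tested members. In aged aorta 6 of 8 were lower, against 47.9% of all genes tested. The 6 include Hoxa6, which passed the count filter only through its young libraries. The difference between classes was not tested. Hoxa7 was at 8.42, 21.0 and 29.5 CPM in young and 11.2, 8.83 and 5.27 CPM in aged aorta. Young replicate 1 lay within the aged range (log2 fold change -1.22 ± 0.48 SE, adjusted p = 0.449 by edgeR). Hoxb6 was at 8.34, 13.5 and 15.9 CPM in young and 8.82, 4.59 and 3.01 CPM in aged aorta, where aged replicate 1 exceeded young replicate 1 (log2 fold change -1.20 ± 0.43 SE, adjusted p = 0.434 by edgeR). Hoxb7 was at 5.16, 7.79 and 10.2 CPM in young and 5.33, 2.07 and 2.83 CPM in aged aorta, with the same overlap (log2 fold change -1.18 ± 0.42 SE, adjusted p = 0.429 by edgeR). These 3 genes shared the order of the young libraries, with the same mouse lowest (replicate 1) and the same mouse highest (replicate 3) in each.

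Hoxa6 was far lower than its neighbours, with 16, 21 and 74 counts in young and 5, 4 and 5 in aged libraries. The groups did not overlap, at 0.330, 0.604 and 2.16 CPM against 0.150, 0.106 and 0.177 CPM (log2 fold change -2.81 ± 0.85 SE, adjusted p = 0.390 by edgeR). Young replicate 3 held most of the young counts, and without it the log2 fold change was -1.67. Hoxb8 was at 2.79, 1.38 and 5.33 CPM in young and 0.572, 2.15 and 1.45 CPM in aged aorta. Hoxc6 was at 0.929, 1.87 and 3.73 CPM in young and 2.11, 1.70 and 0.602 CPM in aged aorta, and Hoxc8 at 0.330, 0.977 and 1.63 against 1.90, 0.848 and 0.637 CPM. For Hoxb8, Hoxc6 and Hoxc8 the ages overlapped widely. Hoxd8 and Hoxc8, with Hoxc5, were the members with a log2 fold change above 0, at 0.19, 0.21 and 0.058. Without young replicate 1 that of Hoxc8 was -0.20, and without aged replicate 1 it was -0.39. In group 9, Hoxa9 had 21, 35 and 36 counts in young and 8, 11 and 0 in aged libraries without overlap as CPM (log2 fold change -2.16 ± 0.98 SE, adjusted p = 0.504 by edgeR), while Hoxb9 overlapped. Hoxa9 too is a low member that passed the count filter only through its young libraries.

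**Figure D3:**
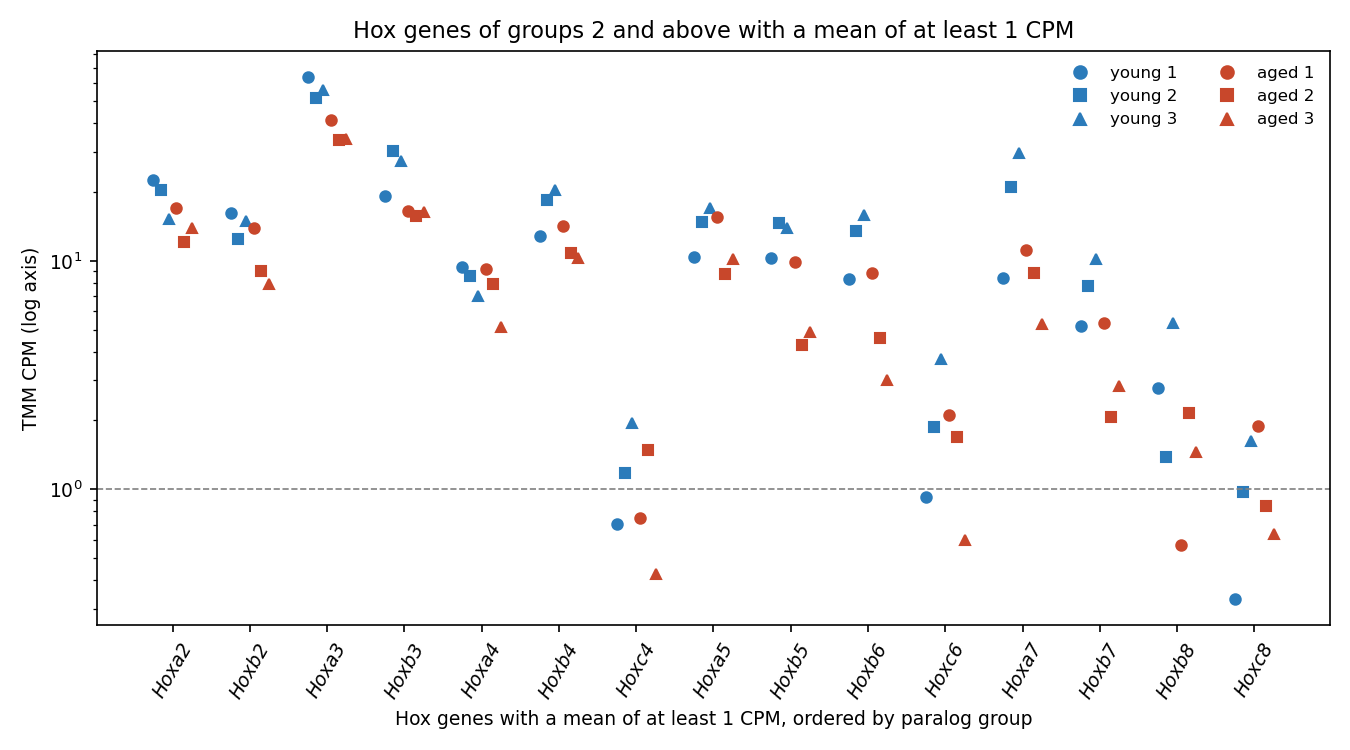
Level of 15 Hox genes of paralog groups 2 and above averaging 1 CPM or more (vertical axis, TMM CPM on a log scale) in each library, ordered by paralog group, young in blue and aged in red, with marker shapes for replicates 1 to 3. The dashed line marks 1 CPM, and the aged points of Hoxa3, Hoxb3 and Hoxb5 lie below all young points.

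As a reading of axial level that does not depend on library scaling, the FPKM of each class was taken as a share of all Hox FPKM in the same library. Groups 1 to 3 gave 50.9%, 40.4% and 34.1% in young and 40.8%, 44.5% and 49.3% in aged aorta. Groups 4 and 5 gave 30.1%, 32.4% and 30.4% in young and 37.1%, 35.5% and 34.1% in aged aorta. The difference was 4.58 percentage points without overlap. When CPM was used in place of FPKM it was 2.70 points, and the ages overlapped. Groups 6 to 8 gave 18.5%, 26.5% and 34.5% in young and 21.6%, 19.4% and 15.4% in aged aorta, and these overlapped. The mean of groups 6 to 8 was 26.5% ± 7.99 in young and 18.8% ± 3.17 in aged aorta (SD, n = 3), and no test was made of these shares. The spread among young mice, from 18.5% to 34.5%, was wider than the difference of -7.71 points between the ages. That difference was -11.7 points without young replicate 1 and -3.72 without young replicate 3, and the difference in groups 1 to 3 was 7.61 and -0.79 in the same settings. Group 9 gave 0.329% to 0.866%, and groups 10 to 13 at most 0.343%.

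Pairs of genes within 1 cluster were compared in the same way. The count of Hoxa7 over that of Hoxa3 was 0.132, 0.408 and 0.526 in young and 0.272, 0.261 and 0.155 in aged libraries. The FPKM of Hoxb6 over that of Hoxb2 was 0.918, 1.91 and 1.90 in young and 1.12, 0.901 and 0.679 in aged libraries. Antisense genes cover 27.3% of the exon bases of Hoxb2 and 20.4% of those of Hoxa7, so strand is unresolved there as for Hoxa3. In both ratios young replicate 1 was the lowest young library, below or within the aged range, and it was the library with the highest cardiac marker sum (309 CPM) and with Xist. The part of these in the ratio was not tested. The mean paralog group, weighted by FPKM, was 3.83, 4.26 and 4.6 in young and 4.12, 4.0 and 3.86 in aged aorta.

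**Figure D4:**
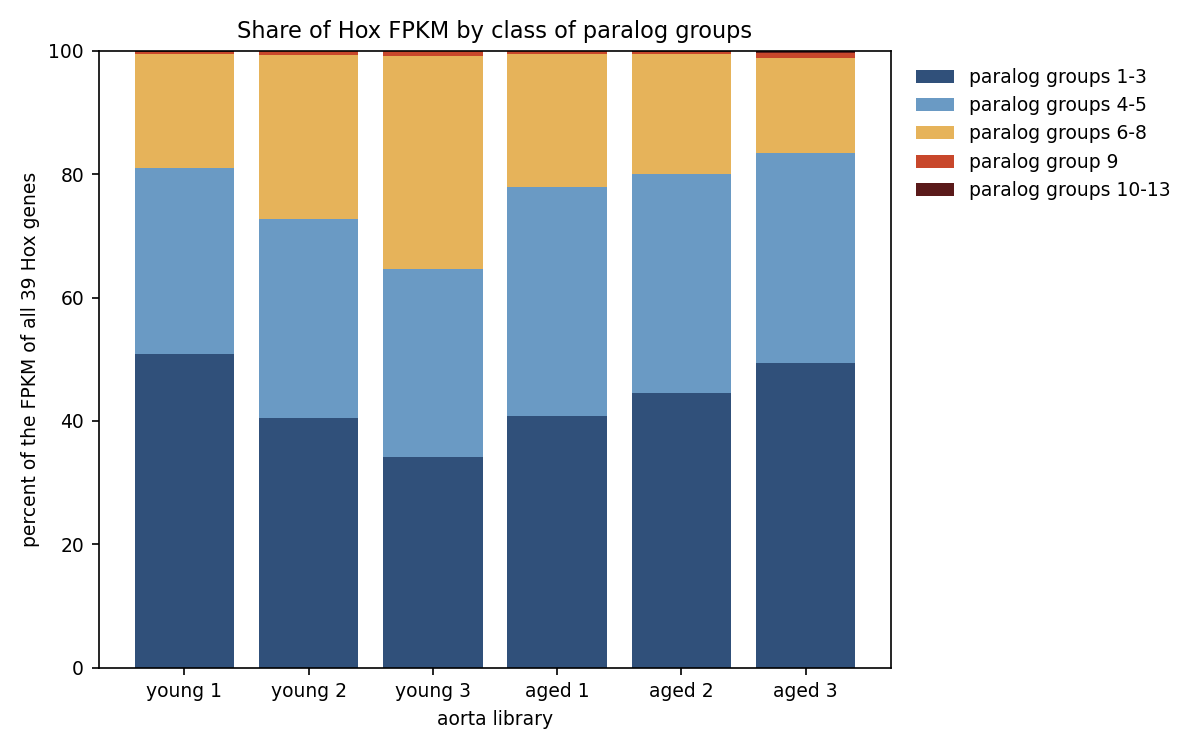
Share of the FPKM of all 39 Hox genes (vertical axis, percent) held by each class of paralog groups in each library (horizontal axis). Groups 6 to 8 range from 15.4% to 34.5% and differ more among the young libraries than between the group means, and groups 9 to 13 form the thin band at the top.

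Noncoding genes of the clusters gave a similar anterior picture. Of 16 such genes measured, 5 were tested, 4 of them with lower values in aged aorta (median log2 fold change -0.36, 0 called by edgeR). Hoxaas2, antisense within HoxA, had the highest CPM, with 17.8, 18.1 and 10.4 in young and 12.5, 6.68 and 5.70 CPM in aged aorta (log2 fold change -0.90 ± 0.36 SE, adjusted p = 0.463 by edgeR). Aged replicate 1 exceeded young replicate 3, so the groups overlapped. Hotairm1, at the anterior end of HoxA, was at 7.31 ± 1.48 CPM in young and 5.14 ± 0.760 in aged aorta (SD, n = 3). Hottip, at the posterior end of HoxA, and Hotair, in the posterior part of HoxC, had no count in any library.

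Genes of proteins that work with Hox proteins, or keep their genes on or off, were read in the same fit. Of the TALE homeodomain cofactors, which bind DNA beside Hox proteins, all 11 were tested, 3 with higher and 8 with lower values in aged aorta (median log2 fold change -0.075). Meis2 was at 32.9 ± 3.55 and 34.4 ± 4.4 CPM in young and aged aorta (SD, n = 3). The smallest p values of the list belonged to Pknox1 (log2 fold change -0.39 ± 0.18 SE) and Tgif1 (0.51 ± 0.25 SE).

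Of 23 Polycomb genes, whose complexes keep Hox genes silent, 17 had lower and 6 higher values in aged aorta (median -0.15). Rbbp4 had the highest CPM, 196 ± 7.84 and 177 ± 11.3 (SD, n = 3), followed by Rbbp7 (log2 fold change -0.16 ± 0.13 SE), and the smallest p values were those of Mtf2 (log2 fold change -0.62 ± 0.25 SE) and Cbx7 (-0.35 ± 0.16 SE). All 14 Trithorax and demethylase genes, which keep Hox genes active, had lower values in aged aorta (median -0.31). Their members with the highest CPM were Kmt2d (log2 fold change -0.35 ± 0.40 SE) and Kmt2a, or MLL1 (-0.32 ± 0.22 SE). The smallest p values were those of Men1 (log2 fold change -0.57 ± 0.19 SE, adjusted p = 0.403 by edgeR) and Kmt2b (-0.39 ± 0.21 SE). edgeR called 0 genes in each of these 3 lists, with 0, 1 and 1 members at an unadjusted p below 0.05, all lower in aged aorta, against 4.82% of all genes.

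Upstream of the clusters, 15 of 19 genes of the retinoic acid pathway were tested, and 8 had higher and 7 lower values in aged aorta (median 0.20). Aldh1a1, which makes retinoic acid, was at 21.5 ± 11.6 CPM in young and 72.7 ± 42.7 in aged aorta (log2 fold change 1.76 ± 0.60 SE, adjusted p = 0.415 by edgeR). The retinol carrier Rbp4 was at 119 ± 19.3 and 156 ± 43.8 CPM (log2 fold change 0.40 ± 0.23 SE). Of 10 ParaHox genes and posterior inducers 9 had no count, including Cdx1, Cdx2 and Cdx4, and Evx1 and Evx2, which lie beside the posterior ends of HoxA and HoxD. Gdf11 alone was tested, at 2.68 ± 1.75 and 4.32 ± 1.41 CPM.

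Factors of the arch and of other positional programmes were present as well. Of the heart outflow and neural crest factors 16 of 20 were tested, 13 with higher and 3 with lower values in aged aorta (median 0.39). Foxc1 was at 100.2 ± 1.98 and 76.3 ± 18.7 CPM in young and aged aorta (SD, n = 3). Gata6 was at 105.7, 50.01 and 61.2 CPM in young and 49.1, 61.0 and 55.7 CPM in aged aorta, so its higher young mean rests on young replicate 1, the library with the highest cardiac marker sum. Tbx1, needed for the pharyngeal arch arteries, was at 4.37 ± 0.705 and 6.75 ± 1.39 CPM, and Tfap2a at 0.431 ± 0.225 and 1.26 ± 0.418 CPM. Both had an unadjusted p below 0.05, as had 5.56% of all genes in the higher direction, and an adjusted p of 0.472 and 0.449 by edgeR. Of the other axial and limb homeobox or T-box genes 16 of 24 were tested, 12 with higher and 4 with lower values (median 0.68). Tbx18, a factor of mural and epicardial cells, was at 66.8 ± 17.1 and 36.2 ± 11.3 CPM (log2 fold change -0.88 ± 0.28 SE, adjusted p = 0.390 by edgeR). Prrx1 (log2 fold change 0.44 ± 0.39 SE), a factor of limb and connective tissue mesenchyme, had the highest CPM of them with Tbx18, and Meox2 was at 6.88 ± 1.63 and 17.2 ± 10.01 CPM. At an unadjusted p below 0.05, 4 genes of this list were higher and 1 was lower. edgeR called 0 genes of either list.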

How the data were processed

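RNA from mouse aorta was sequenced single-ended. The authors deposited raw counts of reads per gene, which are whole numbers without normalization, and FPKM, which the authors scaled for gene length and library. The submitters' processing notes name mm10, and the aligner, counting tool and annotation are not given in the sources used here. Coordinates are from GENCODE M21 on GRCm38, the same build. Upstream sequences are from RefSeq on GRCm38.p6.

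Counts were filtered (filterByExpr, minimum count of 10, minimum total of 15), scaled by TMM and tested over all genes with the quasi-likelihood functions of edgeR 4.0.16 in R 4.3.3, adjusting by Benjamini-Hochberg at 0.05. The fit was tested on simulated counts. Members averaging 1 CPM or more are given per library, members without overlap, at an unadjusted p below 0.05, highest in a cluster or next to the threshold in sentences of their own, and of other lists the 2 most abundant genes and the 2 with the smallest p. Some genes that the rule names are not reported here. Members and lists were chosen with earlier results of these data known. Alternatives were RLE scaling, other filters, DESeq2 1.42.0, limma 3.58.1 after adding 1 or 0.1 to FPKM and taking log2, the replicate number as a block, and each library left out. Leaving out young replicate 1 and aged replicate 2 together was added after the data were seen.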

Additional observations from a re-analysis of the deposited data

How the results depend on the processing

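RLE scaling, no filter, and at least 10 counts in every library left the number of genes called at 0 and the median Hox log2 fold change between -0.60 and -0.53. DESeq2 called 338 genes and 1 Hox gene. Leaving out 1 library in turn gave 0 to 110 genes called, with 110 without aged replicate 2. Genes at an unadjusted p below 0.05 in either direction then numbered 1061 to 2359 of all genes tested, and those lower in aged aorta were not counted apart. Hox genes lower at an unadjusted p below 0.05 numbered 3 to 10. That count was 14 with limma on log2(FPKM + 0.1) (13.4% of all genes) and 13 with a pseudocount of 1 (13.5%), where the median of all genes moved to -0.19 and -0.12 and that of the Hox genes was -0.73 and -0.46. With the replicate block it was 4 (5.16% of all genes). Same-numbered mice deviated together with correlations of 0.079, 0.134 and 0.128, so the numbers were not taken as pairs, although each library correlated best with its own number. Of 20 Hox genes followed, 17 kept the sign of their log2 fold change in every setting that gave them a value. Hoxa6, Hoxa9, Hoxd3 and Hoxd4 gave none at 10 counts in every library, and the tested Hoxa10, Hoxb9, Hoxc5 and Hoxd8 were not followed. Leaving out 1 library in turn gave -0.35 to 0.041 for Hoxa4, positive without aged replicate 3, and -0.92 to 0.082 for Hoxc6, positive without young replicate 3. Hoxc8 turned to -0.0038 with limma and a pseudocount of 1, to -0.037 without young replicate 1 and aged replicate 2 together, to -0.39 without aged replicate 1 and to -0.20 without young replicate 1, in a range of -0.39 to 0.80. The difference in the share of groups 4 and 5 was 2.70 points on CPM, where the ages overlapped, and 6.26 points without Hoxa2. The cause of these changes was not tested. Depth limits the members with few counts, such as Hoxa6 with 4 or 5 counts in each aged library.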
